A study of Mus musculus with 8 samples.

Results

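Genes for the proteasome were read from RNA sequencing of mouse islets, clusters of endocrine cells in the pancreas that secrete insulin, glucagon and other hormones. Every row of the count table whose symbol starts with Psma, Psmb, Psmc, Psmd, Psme or Psmg and a digit was taken, apart from the inducible subunits Psmb8, Psmb9 and Psmb10, which gave 46 of 24469 genes. Both groups were C57BL/6 mice of 8 weeks, whose islets were picked by hand. The 4 wild-type libraries were compared with 4 libraries from mice that carry the Rpl13a snoRNA knockout, in which introns of this ribosomal protein gene no longer give rise to 4 small nucleolar RNAs (U32a and U33, and also U34 and U35a) that guide RNA methylation. The knockout is not described as limited to a cell type, per the labels, and hand-picked islets keep some exocrine tissue, so the libraries are mixtures of cells. In such mixtures fewer cells of a type and less RNA per cell cannot be told apart.

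The proteasome degrades proteins tagged with ubiquitin. Its barrel-shaped core, the 20S particle, stacks outer rings of alpha subunits (Psma genes), which gate the entrance, on inner rings of beta subunits (Psmb genes), some of which carry the proteolytic sites. The 19S cap holds a ring of ATPases (Psmc genes) that unfolds substrates and non-ATPase subunits (Psmd genes) that bind ubiquitin and remove it. The Psmg genes encode chaperones that assemble the core, Psmd5, Psmd9 and Psmd10 encode chaperones that assemble the cap, and the Psme genes encode other activators that can replace the cap. When proteasome activity is short, the transcription factor Nfe2l1 induces subunit genes through antioxidant response elements in their promoters. Beta cells make and fold insulin in bulk and dispose of misfolded proinsulin through this system. Psmc3ip matched the rule by its symbol but encodes a meiotic recombination factor and no proteasome subunit.

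The upstream sequences of 6 members are shown so that the motifs below can be read in them: the 4 members of smallest p among those with a positive log2 fold change and the 2 of smallest p among those with a negative one. They come from RefSeq promoters of GRCm38.p6, which is not the submitters' build, and each is given on the strand of its gene, cut to the stretch that holds no annotated exon. Capitals mark matches to the motifs searched.
Psma2 (chr13:14613166-14613239, + strand): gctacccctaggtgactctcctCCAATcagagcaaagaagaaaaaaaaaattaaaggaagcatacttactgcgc
Psma2, 30-base site further upstream (chr13:14613105-14613134, + strand): ggcccctcttGCGCATGCGCaagggtcaaa
Psmc6 (chr14:45329574-45329787, + strand): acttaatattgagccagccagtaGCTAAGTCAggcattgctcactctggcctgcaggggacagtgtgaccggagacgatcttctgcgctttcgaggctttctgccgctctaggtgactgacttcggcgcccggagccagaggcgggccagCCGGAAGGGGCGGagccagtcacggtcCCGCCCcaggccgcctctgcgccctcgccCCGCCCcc
Psmd11 (chr11:80428365-80428614, + strand): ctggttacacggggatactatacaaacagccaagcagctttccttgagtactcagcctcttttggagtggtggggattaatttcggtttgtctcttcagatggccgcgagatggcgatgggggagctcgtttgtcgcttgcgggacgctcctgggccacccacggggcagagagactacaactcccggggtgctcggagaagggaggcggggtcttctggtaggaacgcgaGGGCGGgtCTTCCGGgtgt
Psmd12 (chr11:107479278-107479483, + strand): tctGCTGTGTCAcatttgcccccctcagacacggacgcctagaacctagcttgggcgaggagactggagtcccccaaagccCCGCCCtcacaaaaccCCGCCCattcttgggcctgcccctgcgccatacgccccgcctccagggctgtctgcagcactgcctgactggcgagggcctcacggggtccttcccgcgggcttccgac
Psmd4 (chr3:95042615-95042864, - strand): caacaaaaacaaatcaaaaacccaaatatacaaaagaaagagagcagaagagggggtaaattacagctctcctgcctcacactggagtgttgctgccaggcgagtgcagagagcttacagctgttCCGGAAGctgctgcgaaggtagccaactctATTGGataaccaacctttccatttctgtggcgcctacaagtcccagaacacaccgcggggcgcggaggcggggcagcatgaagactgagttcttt
Psmb6 (chr11:70525107-70525356, + strand): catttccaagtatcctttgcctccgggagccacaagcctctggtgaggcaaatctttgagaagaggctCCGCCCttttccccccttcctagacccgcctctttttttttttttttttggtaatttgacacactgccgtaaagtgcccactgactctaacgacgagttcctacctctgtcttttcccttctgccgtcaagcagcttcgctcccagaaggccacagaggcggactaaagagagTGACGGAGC

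Motifs were searched on both strands in the 250 bases upstream of the RefSeq start, for the 38 members with a promoter in the table. The ETS-family motif CCGGAAG was found in 13 of them (34.2%), against 14.8% of tested genes and 7.83% of all genes with a promoter. Of the genes printed above, Psmc6, Psmd11, Psmd12 and Psmd4 hold it, in Psmd12 outside the stretch shown. The motif of nuclear respiratory factor 1 stood in 6 members (15.8%), against 9.06% of tested genes. Psma2 holds its palindromic form 127 to 118 bases before the start, inside an annotated exon of the neighbouring gene Mrpl32. The antioxidant response element TGACNNNGC, to which Nfe2l1 binds with small Maf proteins, was found in Psmb5, Psmb6, Psmc6, Psmd12 and Psmd9, 13.2% of members against 13.98% of tested genes. In Psmb6 it covers the last 9 bases before the start. The CCAAT box CCAAT stood in 14 members (36.8%, against 40.1% of tested genes), the GC box GGGCGG in 21 (55.3%, against 63.3%) and the E-box CACGTG in 3 (7.89%, against 9.85%). The heat shock element and the cyclic AMP element TGACGTCA stood in 0 of the 38 windows, against 0.50% and 3.18% of tested genes. In Psmc6 the ETS motif ends where a GC box begins, and no other matches printed above touch. These are matches of letters, which do not show that a factor binds.

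Assigned counts ran from 2.12e+07 to 4.11e+07 per library. Of these, the ribosomal RNA precursor row Rn45s took 36.7 to 41.3%, the most in knockout replicate 1. The targeted snoRNAs were barely covered, with 15 counts in wild type (7, 1, 5 and 2 in replicates 1 to 4) and 0 in each knockout library, and with U34 and U35a at 0 in both genotypes. Beta-cell genes such as Ins2 were abundant, and all 10 beta-cell markers were detected. The 34 acinar markers took 2.22 to 28.9% of counts in wild type and 5.76 to 30.1% in knockout, with the highest wild-type share in replicate 1. Liver genes summed to 4440 CPM in knockout replicate 2 and to 2.66 to 7.55 CPM in the other 7 libraries. The X-inactivation RNA Xist had 20935 counts in wild-type replicate 4 and 11458 and 20491 in knockout replicates 1 and 4. The remaining libraries had 51 to 158, so the genotypes were not balanced for it. A covariate for high Xist was among the other settings tried. CPM here is a count scaled to a common library size, itself adjusted by TMM, a factor that corrects for differences in composition.

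No proteasome gene passed an FDR of 0.05 in edgeR's quasi-likelihood test, where 44 of the 46 members were kept and 2 of 13617 genes (0.0147%) passed. Psma2, an alpha ring gene, had the smallest p of the family and lay 1.67-fold higher in the knockout. Of the 44 members 29 had a positive log2 fold change, with a median of 0.083 and a range of -0.42 to 0.74, and 51.3% of all genes tested were positive, with a median of 0.010. This balance depended on the scaling: with no composition factor, which moved the median of all genes to -0.11, 22 of the 44 were positive and their median was -0.011. At an unadjusted p under 0.05 there were 12 members, 27.3% where 18.7% of all genes reached it, of which 9 were higher in the knockout (20.5%, where 8.42% of all genes were) and 3 lower (6.82%, against 10.3%). The genotypes did not overlap for 5 members higher in the knockout, Psma2, Psmc6, Psmd11, Psmd8 and Psmg2, or 11.4%, where 3.68% of all genes did so. They also did not overlap for Psmd4 and Psmg4, which were lower, or 4.55% against 4.66% of all genes (15.9% against 8.34% in either direction). Other tools differed in the count. DESeq2 called 3 members, all higher (Psma2, Psmc6 and Psmd11, where 3.86% of all genes were called), and limma-voom with library weights called 5, adding Psma3 and Psmd12 (6.16% of all genes). Limma-voom without weights called 0.

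The count also turned on 1 library. Without wild-type replicate 1, 6 members rose and 1 fell in edgeR's test (15.9% of members, where 9.46% of all genes passed): Psma2, Psma3, Psmc6, Psmd6, Psmd11 and Psmd12 rose, which is 13.6% of members where 3.39% of all genes rose, and Psmd4 fell (2.27% of members, where 6.08% of all genes fell). Wild-type replicate 1 held the highest of the 4 wild-type values for 23 of the 44 members (52.3%), against 31.3% of all genes tested. It was also the highest wild-type library for all 32 tested acinar markers and the lowest for 8 of the 10 beta-cell markers. Acinar markers had positive log2 fold changes in 32 of 32 tested, with 0 called and 0 of 34 at 0 in every library. Their summed level was 16586 to 387855 CPM (wild type) and 43752 to 429027 CPM (knockout). Beta-cell markers were negative in 9 of 10, with 0 called, at 134616 to 183767 CPM summed in wild type and 105679 to 134350 CPM in knockout. Without wild-type replicate 1, 5 of the 10 beta-cell markers fell. Mesenchymal markers were positive in 6 of 8, with a median log2 fold change of 0.68 and 0 called, and without that library 1 rose. The part of these lists in the results of the members was not tested. Without that library and with the acinar share as covariate, Psma2 alone passed (adjusted p = 0.0385, where 1.92% of all genes passed), a combination chosen after seeing the data. With that covariate and all 8 libraries 0 members passed, and the median of the members was 0.054.

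**Figure D1:**
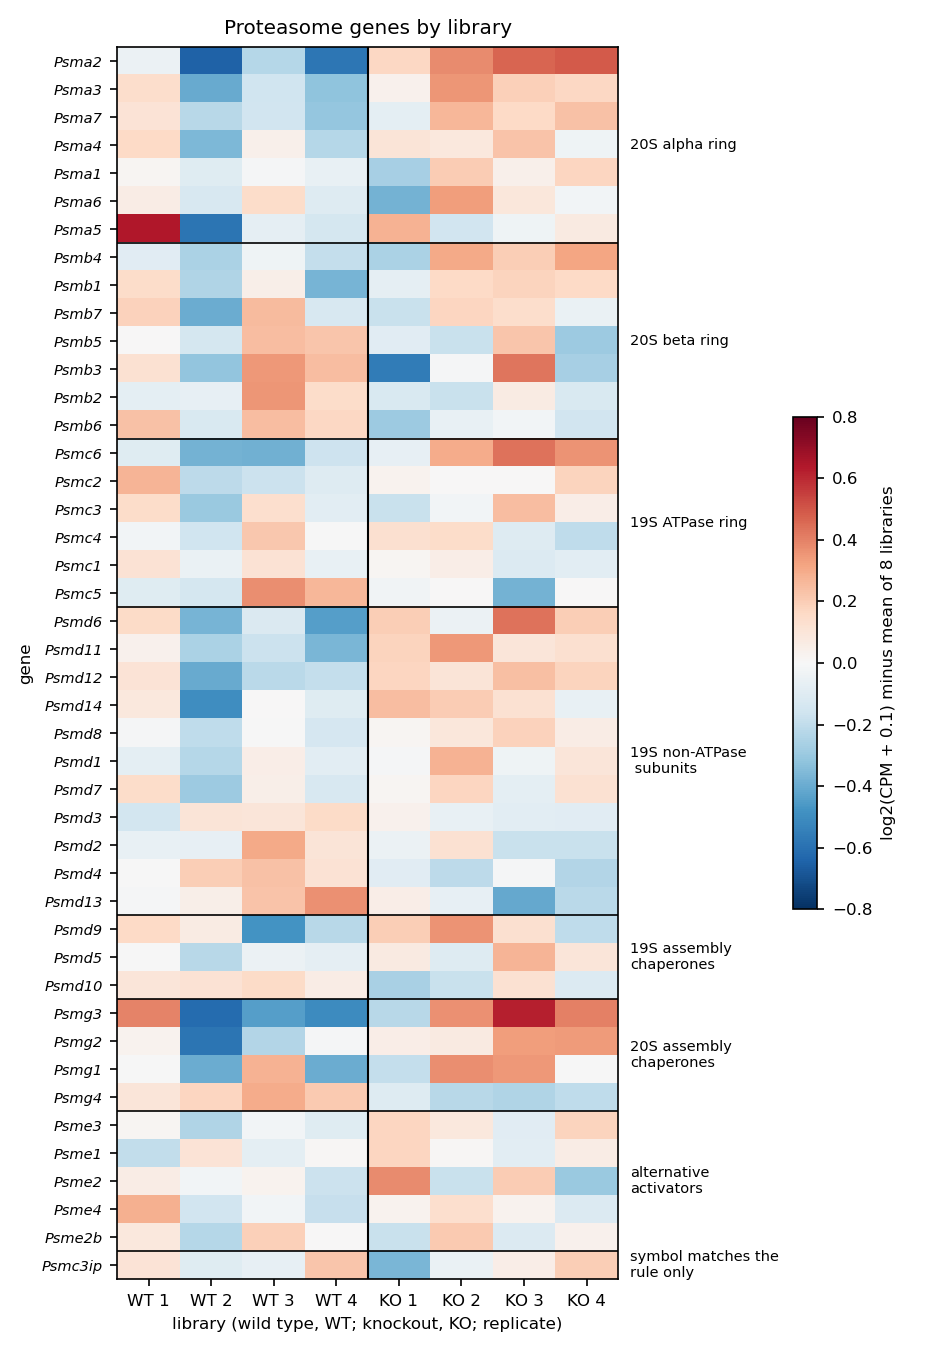
Level of each of the 44 tested members (rows, by group) in each library (columns), as log2(CPM + 0.1) minus the mean of the 8 libraries. Psma2 is below its mean in all 4 wild-type libraries, only slightly in replicate 1, and above it in all 4 knockout libraries. Wild-type replicate 2 is low in most rows.

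Summed over all members, the level was 745, 621, 747 and 672 CPM in wild-type replicates 1 to 4 and 711, 780, 752 and 746 CPM in the knockout replicates. In CPM the wild-type libraries thus spanned more than the knockout libraries (696 ± 61.2 against 747 ± 28.2 CPM, mean ± SD, n = 4 each), and the ranges overlap. This order depended on the scaling. As a percent of all counts, the members took 0.0556 to 0.0830% in wild type and 0.0528 to 0.103% in knockout, where the knockout libraries spanned more. Wild-type replicate 2, which holds the smallest share of acinar counts, had the lowest sum in CPM but the highest wild-type percent of counts (0.0830%). Knockout replicate 2, with an acinar share of 5.76%, had the highest sum in CPM. A relation of the sum to the acinar share was not tested. Over the members the median SD of log2 levels was 0.18 in wild type and 0.15 in knockout, against 0.23 and 0.20 over all genes tested. The 2 sets were not matched for level, and genes with few counts can spread more, such as Psma5 (0.51 in wild type). The difference is therefore not taken as a trait of the family.

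The alpha ring had the most one-sided values. All 7 tested alpha genes lay above 0 in log2 fold change in edgeR's fit of 8 libraries (median 0.18). The values ran from 0.016 (Psma5) to 0.74 (Psma2), where 51.3% of all genes tested were positive. Psma5 and Psma6 turned negative with no composition factor, these and Psma1 on the RPM values, and Psma5 with the acinar covariate. Leaving out 1 library brought Psma5 as low as -0.15 and Psma6 as low as -0.084. An unadjusted p under 0.05 in edgeR's test was reached by 3 of the 7, all higher in the knockout, where 8.42% of all genes were. Psma2 was at 30.7, 20.2, 27.0 and 21.1 CPM in wild-type replicates 1 to 4 and at 35.5, 41.2, 43.9 and 44.7 CPM in the knockout replicates. Every knockout library lay above every wild-type library. The log2 fold change of Psma2 was 0.74 ± 0.14 (SE), for an edgeR adjusted p of 0.116, and 0.84 with an adjusted p of 0.0092 without wild-type replicate 1. Psma3 was at 22.7, 15.6, 18.4 and 16.5 CPM in wild type and at 21.1, 26.4, 23.5 and 23.1 CPM in knockout. The groups overlap because wild-type replicate 1 exceeds knockout replicate 1 (log2 fold change 0.36 ± 0.13, edgeR adjusted p = 0.191, and 0.024 without wild-type replicate 1). Psma7, Psma4, Psma1 and Psma6 had log2 fold changes of 0.29, 0.18, 0.091 and 0.035. The remaining alpha gene, Psma8, replaces Psma7 in the testis and had 3 counts over the 8 libraries, so it was not tested.

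In the beta ring 3 of 7 tested genes were positive, with a median log2 fold change of -0.17, and none passed. The catalytic subunits are Psmb6 (caspase-like site), Psmb7 (trypsin-like site) and Psmb5 (chymotrypsin-like site). Psmb6 was at 21.4, 16.6, 21.5 and 20.4 CPM in wild type and at 14.8, 17.4, 17.8 and 16.3 CPM in knockout. Wild-type replicate 2 fell inside the knockout range, and the other wild-type libraries lay above it (log2 fold change -0.27 ± 0.11, edgeR adjusted p = 0.234). Psmb5 was at 8.18, 7.38, 9.71 and 9.52 CPM against 7.65, 7.21, 9.54 and 6.65 CPM, and Psmb7 at 12.2, 8.13, 12.9 and 9.83 CPM against 9.47, 12.1, 11.9 and 10.4 CPM. For both the genotypes overlap, with log2 fold changes of -0.17 ± 0.14 and 0.030 ± 0.15 (edgeR adjusted p = 0.538 and 0.929). Psmb7 shares 405 exonic bases with Nek6 on the other strand, so its counts are uncertain too. Of the structural beta genes, Psmb2 was at 8.74, 8.82, 11.8 and 10.2 CPM in wild type and 8.47, 8.15, 9.63 and 8.45 CPM in knockout (log2 fold change -0.19 ± 0.13, edgeR adjusted p = 0.423). Psmb4 and Psmb1 had log2 fold changes of 0.30 and 0.20 and Psmb3 one of -0.17. Psmb11, the catalytic subunit of thymic epithelium, had 5 counts in all and was not tested.

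Under interferon signals cells replace the catalytic subunits with Psmb9 (for Psmb6), Psmb10 (for Psmb7) and Psmb8 (for Psmb5). Per kilobase of transcript, Psmb6 stood at 20.9 to 26.9 CPM in wild type and 18.6 to 22.4 CPM in knockout, and its counterpart Psmb9 at 0.29 to 0.56 and 0.23 to 0.41 CPM. Psmb8 was at 2.69 ± 0.58 CPM per kilobase in wild type and 2.46 ± 0.41 in knockout, against 9.68 ± 1.24 and 8.63 ± 1.40 for Psmb5 (mean ± SD, n = 4). In these pairs the constitutive gene was the higher one in each of the 8 libraries. Psmb10 differed: it was at 19.8, 2.96, 11.2 and 4.23 CPM per kilobase in wild type and 17.1, 3.58, 16.9 and 8.01 in knockout, above Psmb7 in 4 libraries and below it in the other 4. The libraries where it was higher were wild-type replicates 1 and 3 and knockout replicates 1 and 3, and knockout replicate 4 had 8.01 for Psmb10 and 8.95 for Psmb7. Psmb10 neighbours the abundant acinar gene Ctrl on the same strand, and the part of Ctrl in its counts was not tested. None of the inducible genes passed (log2 fold changes -0.13 for Psmb8, -0.56 for Psmb9 and 0.25 for Psmb10; edgeR adjusted p = 0.741, 0.377 and 0.881). Psmb9 shares 212 exonic bases with Tap1 on the other strand in the GENCODE M21 annotation, and strand is not given in the sources used here, so its counts are uncertain.

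**Figure D2:**
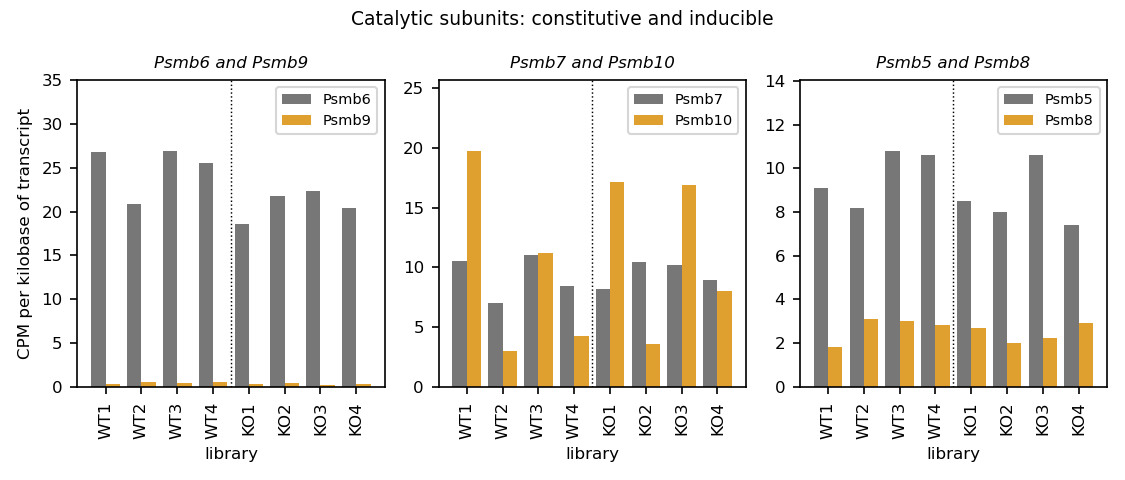
CPM per kilobase of transcript (vertical axes) of each constitutive catalytic subunit (grey) and its inducible counterpart (orange) in each library (horizontal axes, wild type left of the dotted line). Psmb9 and Psmb8 stay below their partners in all 8 libraries, while Psmb10 runs from 2.96 to 19.8 and exceeds Psmb7 in 4 libraries.

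The ATPase ring of the cap was split evenly, with 3 of 6 genes positive and a median log2 fold change of 0.015. Psmc6 stood apart: it was at 7.27, 5.96, 5.94 and 6.92 CPM in wild type and at 7.41, 9.59, 10.6 and 9.99 CPM in knockout. The groups do not overlap, with knockout replicate 1 just above wild-type replicate 1. Its log2 fold change was 0.53 ± 0.14 (edgeR adjusted p = 0.144), and 0.57 without wild-type replicate 1 (adjusted p = 0.036). Psmc5 was at 37.8, 36.8, 52.4 and 48.7 CPM in wild type and 39.6, 40.6, 31.1 and 40.6 CPM in knockout. Knockout replicate 3 is low and wild-type replicates 3 and 4 are high, and the other libraries lie together (log2 fold change -0.21 ± 0.14, edgeR adjusted p = 0.416). Psmc1, Psmc2, Psmc3 and Psmc4 ranged from -0.063 to 0.096.

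Among the 11 non-ATPase subunits of the cap, 7 had positive values, with a median log2 fold change of 0.17. Psmd11 and Psmd12 encode scaffold subunits of the lid. Psmd11 was at 21, 17.2, 18.2 and 15.9 CPM in wild type and 23.2, 26.1, 21.95 and 22.4 CPM in knockout, without overlap. Psmd12 was at 14.6, 10.2, 11.6 and 11.9 CPM against 15.3, 14.5, 16.0 and 15.4 CPM, and the groups overlap only where wild-type replicate 1 exceeds knockout replicate 2. Their log2 fold changes were 0.37 ± 0.11 and 0.34 ± 0.12 (edgeR adjusted p = 0.151 and 0.188), and without wild-type replicate 1 the adjusted p was 0.024 and 0.027. Psmd6, another lid subunit, was at 19.5, 13.5, 16.1 and 12.9 CPM in wild type and 20.1, 17.0, 23.7 and 20.1 CPM in knockout. Only wild-type replicate 1 lay inside the knockout range (log2 fold change 0.38 ± 0.15, edgeR adjusted p = 0.216, and 0.039 without wild-type replicate 1). Psmd8, at 0.17, did not overlap either.

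Psmd4, a ubiquitin receptor of the cap, and Psmd13, a lid subunit, had the lowest log2 fold changes of the group. Psmd4 was at 15.9, 18.3, 18.8 and 17.3 CPM in wild type and 14.999, 13.8, 15.9 and 13.6 CPM in knockout. The genotypes do not overlap, although wild-type replicate 1 and knockout replicate 3 differ by less than 1 CPM (log2 fold change -0.27 ± 0.098, edgeR adjusted p = 0.193, and 0.0499 without wild-type replicate 1). Psmd13 was at 9.39, 9.78, 11.1 and 12.2 CPM against 9.82, 9.03, 7.11 and 8.13 CPM. Knockout replicate 1 lies inside the wild-type range (log2 fold change -0.32 ± 0.13, edgeR adjusted p = 0.238). Psmd13 shares 152 exonic bases with Sirt3 on the other strand, so its counts are uncertain without strand. Psmd14, the deubiquitinase of the lid, had a log2 fold change of 0.25, the scaffold genes Psmd1 and Psmd2 of the base had 0.17 and -0.14, and Psmd7 and Psmd3 had 0.11 and -0.11. Psmc4, Psmd8, Psma1 and Psmd13 lie on chromosome 7 with Rpl13a, 148 to 524 tested genes from it in the GRCm38 order.

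**Figure D3:**
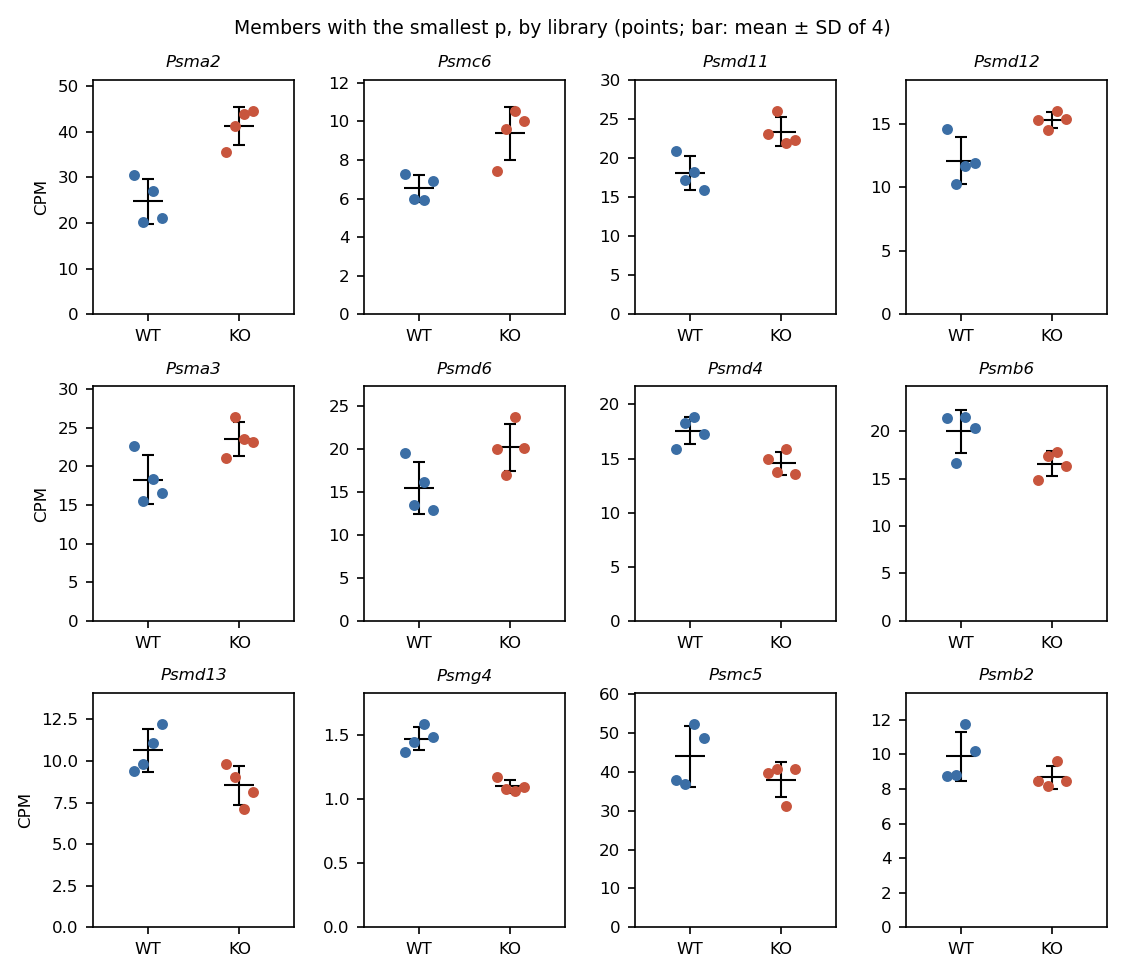
CPM of the 6 members of smallest p with a positive and the 6 with a negative log2 fold change, by genotype (WT, wild type; KO, knockout; points are libraries, bars are mean ± SD, n = 4). The genotypes are separate for Psma2, Psmc6, Psmd11, Psmd4 and Psmg4 and overlap for the other 7.

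The assembly chaperones were expressed at low levels. For core assembly, Psmg1, Psmg2 and Psmg3 had log2 fold changes of 0.27, 0.40 and 0.62, and Psmg4, which works as a pair with Psmg3, had -0.42. Psmg4 was at 1.37, 1.45, 1.59 and 1.48 CPM in wild type and 1.18, 1.08, 1.06 and 1.09 CPM in knockout. The genotypes do not overlap (log2 fold change -0.42 ± 0.20, edgeR adjusted p = 0.276). Psmg3 ran from 0.69 to 1.5 CPM in wild type and from 0.94 to 1.77 CPM in knockout, overlapping through wild-type replicate 1 (edgeR adjusted p = 0.293), and it shares 237 exonic bases with the annotated gene Gm26938. Of the cap chaperones, Psmd9 and Psmd5 had 0.24 and 0.18 and Psmd10 had -0.21.

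None of the activators passed, and 4 of 5 had positive log2 fold changes, against 1 of 5 with no composition factor. Psme1 and Psme2 encode the subunits of PA28, the interferon-induced activator used in antigen processing. Psme1 was at 9.59, 11.9, 10.4 and 11.0 CPM in wild type and at 12.4, 11.1, 10.3 and 11.4 CPM in knockout, with overlap (log2 fold change 0.076 ± 0.11, edgeR adjusted p = 0.726). Psme2 was at 1.63, 1.54, 1.59 and 1.37 CPM against 2.06, 1.37, 1.81 and 1.25 CPM, with the knockout libraries on either side of the wild-type ones (log2 fold change 0.068 ± 0.22, adjusted p = 0.884). Its near-identical copy Psme2b had means of 7.92 ± 0.96 CPM (wild type) and 7.80 ± 0.96 CPM (knockout, SD, n = 4 each), so the reads of both genes may have been split between them and their separate levels are uncertain. Psme3, the nuclear PA28 gamma, and Psme4, the PA200 activator, had log2 fold changes of 0.17 and 0.026.

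**Figure D4:**
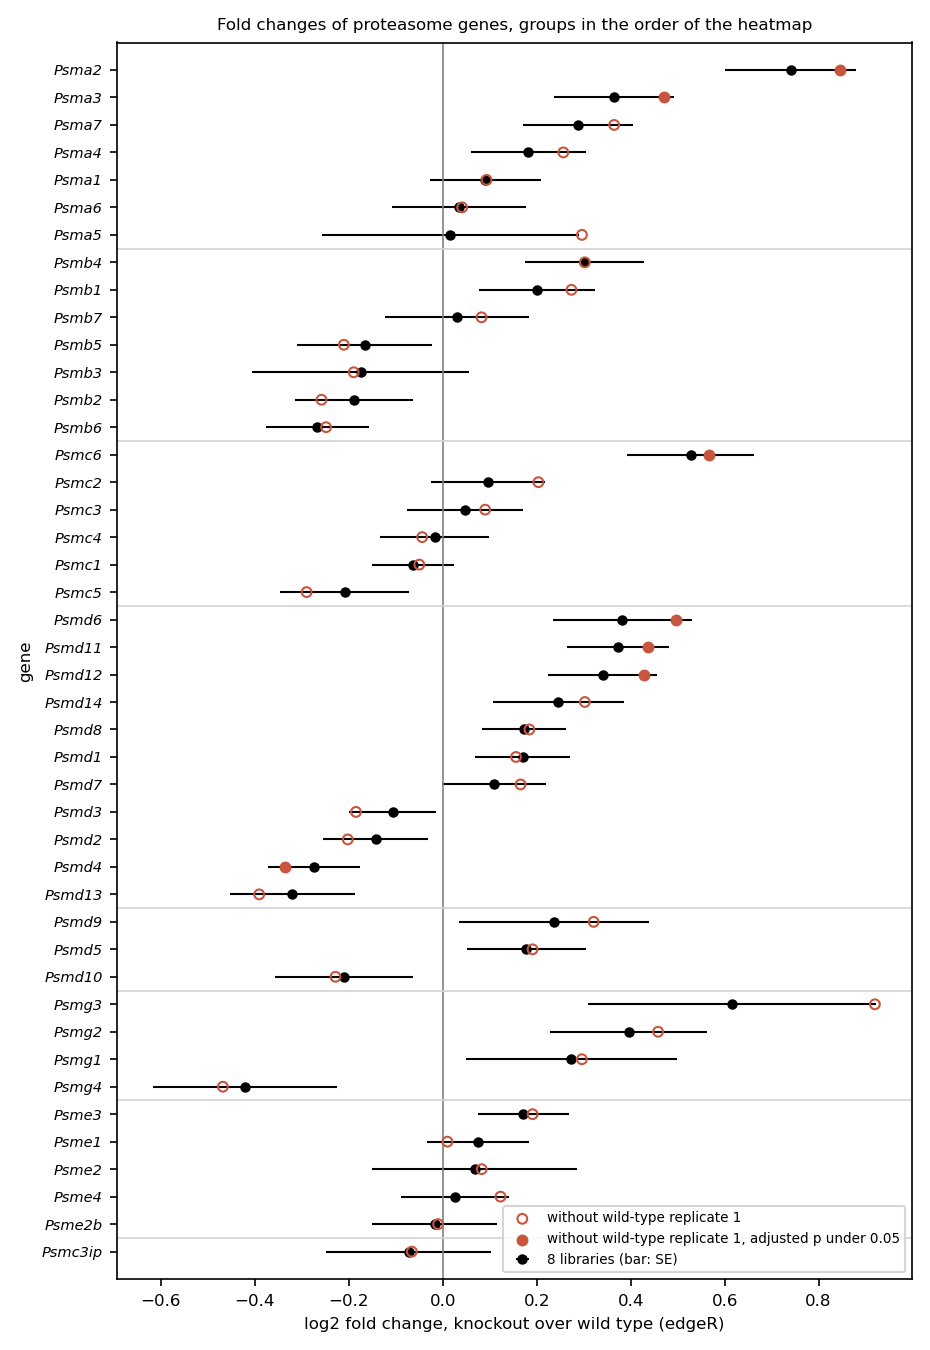
Log2 fold change (horizontal axis, knockout over wild type) of each tested member from the edgeR fit of 8 libraries (black, bar is SE) and without wild-type replicate 1 (red, filled where the adjusted p is under 0.05). The 7 filled points are Psma2, Psma3, Psmc6, Psmd6, Psmd11 and Psmd12 to the right of 0 and Psmd4 to the left.

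Levels differed widely within rings whose subunits are present in equal numbers in the particle. Per kilobase of the longest coding transcript, Psma4 was at 17.9 ± 2.94 CPM and Psma5 at 1.38 ± 0.55 CPM in wild type (mean ± SD, n = 4), a ratio of 12.9 within the alpha ring. The beta ring ran from Psmb3 (4.25 ± 0.82) to Psmb6 (25.0 ± 2.84), the ATPase ring from Psmc6 (2.92 ± 0.30) to Psmc5 (33.4 ± 5.94), and the non-ATPase subunits from Psmd13 (5.34 ± 0.65) to Psmd7 (15.5 ± 2.07), all in CPM per kilobase in wild type. The assembly chaperones lay lower, from Psmd9 (0.90 ± 0.18) to Psmd10 (2.41 ± 0.065) for the cap and from Psmg3 (1.06 ± 0.43) to Psmg2 (2.88 ± 0.54) for the core. In the knockout the same alpha genes were at 1.40 ± 0.19 (Psma5) and 20.3 ± 1.501 (Psma4). There Psma5 was again the lowest of the ring, but Psma7 had a higher mean than Psma4. Also in the knockout, Psmc6 was at 4.20 ± 0.62, Psmb6 at 20.8 ± 1.68 and Psmg3 at 1.61 ± 0.39. The lengths come from GENCODE M21 and not from the submitters' annotation, and processed copies of some subunit genes could take reads from their parents, so levels of single genes are approximate.

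**Figure D5:**
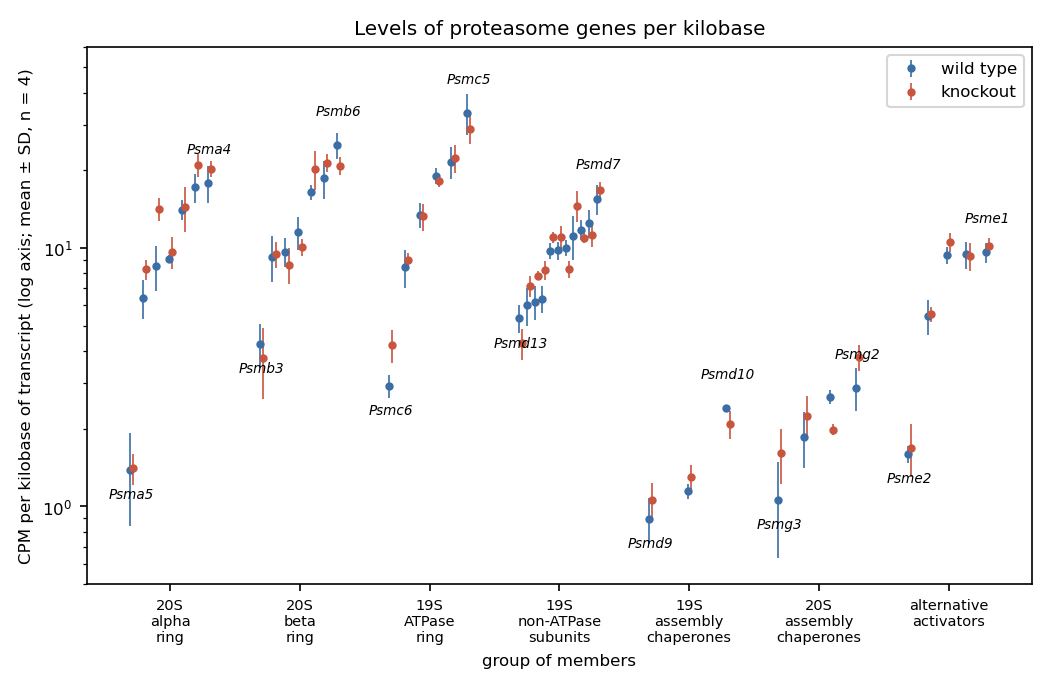
Mean level per kilobase (vertical log axis, CPM per kilobase, bars are SD, n = 4) of each tested member by group (horizontal axis; Psmc3ip is left out), in wild type (blue) and knockout (red). The core and cap genes mostly lie between 4 and 34 CPM per kilobase, with Psma5 below in both genotypes, Psmc6 below in wild type and Psmb3 below in knockout, and all assembly chaperones lie under 4.

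Other genes of the ubiquitin pathway were read from lists of accessory factors, regulators, ubiquitin genes and delivery factors, and together with the inducible subunits 0 of 43 tested genes passed. Ubb, which encodes polyubiquitin, was at 125, 171, 183 and 199 CPM in wild type and 98.0, 124, 127 and 80.5 CPM in knockout. Wild-type replicate 1 lay inside the knockout range and the other wild-type libraries lay above it. The log2 fold change was -0.66 ± 0.17 (edgeR adjusted p = 0.144), and without wild-type replicate 1 Ubb fell (adjusted p = 0.016). In the list of ubiquitin genes and E1 enzymes 4 of 8 were positive, with a median of 0.023. Rps27a, which encodes ubiquitin fused to a ribosomal protein, rose without wild-type replicate 1 (log2 fold change 0.54, adjusted p = 0.039), against 0.36 in all 8 libraries (edgeR adjusted p = 0.304).

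Of 9 regulators 4 were positive, with a median log2 fold change of -0.058. Nfe2l1 was at 61.6, 75.7, 76.2 and 82.5 CPM in wild type and 64.2, 65.1, 59.9 and 57.2 CPM in knockout. Again only wild-type replicate 1 lay in the knockout range (log2 fold change -0.26 ± 0.10, edgeR adjusted p = 0.221, and 0.030 without that library). Ngly1, the glycanase that activates Nfe2l1, had a log2 fold change of 0.38 ± 0.18. Of 10 accessory factors 6 were positive, with a median of 0.14. Akirin2, which brings proteasomes into the nucleus, ran from 3.94 to 4.66 CPM in wild type and from 4.00 to 7.97 CPM in knockout (log2 fold change 0.51 ± 0.19, edgeR adjusted p = 0.207). Psmf1, the inhibitor PI31, had -0.24 ± 0.11 (adjusted p = 0.253). Of 13 tested delivery factors 5 were positive, with a median of -0.029. Bag6, a chaperone for mislocalised membrane proteins, was at 27.6, 41.1, 37.7 and 40.3 CPM in wild type and 30.3, 26.7, 26.2 and 24.8 CPM in knockout (log2 fold change -0.44 ± 0.13, adjusted p = 0.152, and 0.0097 without wild-type replicate 1). The ubiquitin receptor gene Rad23b had 0.29 ± 0.11 (edgeR adjusted p = 0.204).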

How the data were processed

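RNA of islets from 4 wild-type and 4 knockout mice was sequenced from SeqPlex libraries of total RNA, per the labels' protocols. STAR 2.4.1, Partek and mm9 are named, without roles, in the submitters' processing notes, and neither annotation nor strand setting was stated. The authors deposited estimated counts per gene (9.98 to 12.4% of values not whole within 0.01, rounded here) and RPM values with an offset of 1e-04. The test was that of edgeR 4.0.16, run in R 4.3.3 (TMM, filterByExpr, robust quasi-likelihood F-test, Benjamini-Hochberg adjustment over 13617 genes, threshold 0.05), after a check on simulated data. CPM uses TMM-scaled library sizes. Standard errors come from the F statistic. Alternatives included DESeq2 1.42.0 and limma 3.58.1. Transcript lengths and GC content came from GENCODE M21, matched by symbol.

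The members and lists were chosen with earlier results of these data known. Members are named in full if they pass the FDR, are among the 6 of smallest p in either direction, or are Psmb5, Psmb6, Psmb7, Psme1 or Psme2, with the highest and lowest per kilobase of each group; in the other lists the 2 of smallest p are named, and always Psmb8, Psmb9, Psmb10 and Nfe2l1. Psmd8 and Psmg2 were named after their values were seen. The mice are separate animals, per the labels' protocols, and no libraries were copies (chi-square of at least 26.7 per degree of freedom between any pair). Count limits cover counting error only. 1 gene of the ubiquitin list is not reported here.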

Additional observations from a re-analysis of the deposited data

Results flagged for a closer look

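Psmc5 in knockout replicate 3, at 31.1 CPM, stood apart from the other knockout libraries at 39.6 to 40.6 CPM; the gap was 0.902 of the range of the group, past the limit of Dixon's test. The summed level of the cap assembly chaperones was 11.6 CPM in wild-type replicate 1, against 10.5 to 10.7 CPM in the other wild-type libraries (0.858 of the range). In knockout replicate 3 it was 12.7 CPM, and the remaining knockout libraries lay at 10.9 to 11.2 CPM (0.830 of the range). These are 3 of 70 groups examined, and chance flags about 1 in 20.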

How the results depend on the processing

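Over 24 other settings, the number of members past the FDR was 0 in all except 4. These were DESeq2 (3 members), limma-voom with library weights (5), leaving out wild-type replicate 1 (7) and leaving it out with the acinar covariate (1). Leaving out 1 library gave 0 to 7 members and 2 to 1313 genes, where leaving out knockout replicate 4 gave 5 genes and wild-type replicate 1 gave 1313. Over all genes the count of 2 became 48 with no composition factor, 1 with a CPM of at least 5 in at least 4 libraries, 526 with DESeq2, 839 with limma-voom with library weights and 51 with limma-trend on log2(RPM + 1). Without wild-type replicate 1 and with the acinar share as covariate, chosen after seeing the data, 1 member and 267 genes passed. The members called with DESeq2, with weights or with that covariate are all among the 7. The median log2 fold change of the members was -0.039 with limma-trend, where that of all genes was -0.088. Of 643 values of 27 named genes under the alternatives, 594 kept direction and side of the threshold, 25 gained a call and 24 changed sign. Those that changed sign were Psmb5 (0.024) and Psmb8 (0.050) with the GC trend removed. Psme1 was -0.068 with no composition factor and -0.060 with limma-trend. Psme2 was -0.086 and -0.046 in those settings, -0.015 with the acinar covariate and -0.069 with it and without wild-type replicate 1. It ran from -0.070 to 0.177 leaving out 1 library. Psmb7 was -0.036, -0.084, -0.042 and -0.035 in the same 4 settings, -0.0046 with the GC trend removed, and -0.084 to 0.113 leaving out 1 library. Psmb10 was -0.37 with the acinar covariate, -0.38 with it and without wild-type replicate 1, and -0.049 to 0.88 leaving out 1 library. The cause of these differences was not tested.

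Same-numbered libraries deviated together with correlations of 0.038, 0.21, 0.16 and 0.15 for replicates 1 to 4, and wild-type replicates 2, 3 and 4 correlated best with their own number but replicate 1 with knockout replicate 3. Replicate 1 lay under 0.1 and the labels state no pairing, so the numbers were not taken to pair the libraries. With a replicate block 0 members and 2 genes passed, and the median of the members was 0.083. Members with few counts, such as Psmg3 and Psma5, have the widest errors, and Psma8 and Psmb11 were too low to test.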

Other observations

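Psmb10 was chosen for a closer look after its values were seen. Psmb10 was at 25.9, 3.88, 14.7 and 5.55 CPM in wild-type replicates 1 to 4, where acinar markers took 28.9, 2.22, 15.6 and 5.31% of counts. In the knockout replicates it was at 22.5, 4.70, 22.2 and 10.5 CPM, beside acinar shares of 24.1, 5.76, 30.1 and 19.1%. The 4 highest Psmb10 levels, 14.7 CPM and above, were in wild-type replicates 1 and 3 and knockout replicates 1 and 3, and the 3 lowest were in the libraries with the 3 smallest acinar shares. Psmb9 was at 0.39, 0.66, 0.59 and 0.76 CPM in wild type and 0.35, 0.55, 0.31 and 0.39 CPM in knockout, and Psmb8 at 3.0, 5.06, 4.87 and 4.57 CPM and 4.35, 3.26, 3.67 and 4.76 CPM. Over the 8 libraries the Spearman correlation with the acinar share was 0.88 for Psmb10, -0.88 for Psmb9 and -0.60 for Psmb8. Psmb9 had only 120 counts in all. Ctrl, an acinar chymotrypsin-like protease gene, is the neighbour of Psmb10 on the same strand, with 0 protein-coding genes between them in the GENCODE M21 order. Ctrl was at 7698, 346, 3269 and 1005 CPM in wild type and 5582, 727, 6398 and 3365 CPM in knockout, and its part in the Psmb10 counts was not tested.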
